A study of Mus musculus with 6 samples.

Results

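The genes described here are 10 targets of NRF2 and enzymes of antioxidant defense, namely Gclc, Gclm, Gsr, Gpx2, Gpx4, Txnrd1, Srxn1, Prdx1, Nqo1 and Hmox1. They were taken by symbol through the Ensembl identifiers of GENCODE M39, and all 10 were found among the 55416 genes of the table. RNA-Seq was carried out on organoids grown from duodenal and jejunal crypts of 3 C57BL/6 mice that are labelled WT. Organoids of each mouse received either LDL at 50 μg/ml or PBS over 5 days, which gave 3 LDL-treated and 3 PBS-treated libraries paired by mouse. All were grown in Matrigel with a commercial growth medium, so both groups lack the stroma, blood supply and luminal content of the intestine, and each library is 1 organoid culture of 1 animal. The labels leave the genotype of mouse 3 less certain than that of the other mice, so results without mouse 3 are given beside many of those that they change. None are given for the cell type markers or for Slc1a5, Ggt6, Anpep, Idh2, Nnt, Selenoi, Selenos, Pstk, Rpl30 and Aoc1.

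Between 22061545 and 31073360 reads fell on genes in each library. The LDL-treated library of mouse 1 stood apart, with reads on 35781 genes against 29285 to 32751 in the other libraries and 7.62% of its reads on the ribosomal RNA gene Rn18s-rs5. Markers of intestinal epithelium, the labelled tissue, were abundant, and their 12 normalized counts summed to 111107 to 141691 with LDL and 99046 to 114481 with PBS. The sums for other cell types were small: 100.9 to 165 with LDL and 167 to 193 with PBS for 10 stromal markers, 172 to 285 and 150 to 205 for 10 immune markers, 19.1 to 61.0 and 24.4 to 35.7 for 7 endothelial markers, and 79.1 to 102 and 70.8 to 125 for 6 erythroid markers. Of these, 3, 3, 1 and 1 markers passed the filter on low values, and no list had a marker at 0 in all libraries. Among the epithelial markers, Krt8, Krt18 and Krt20 rose and Olfm4 fell by the rule for calls given below, and none of these 4 passed without the mouse as a block (limma adjusted p = 0.100, 0.132, 0.133 and 0.156). In mouse 2, Krt20 was 1.06-fold and Olfm4 0.994-fold. The part of these shifts in the results below was not tested. In such bulk samples, fewer cells of a type and less RNA per cell cannot be told apart.

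NRF2, encoded by Nfe2l2, is a transcription factor that KEAP1 holds in the cytoplasm and marks for degradation. Electrophiles and oxidants modify KEAP1, NRF2 then accumulates in the nucleus, pairs with small MAF proteins and binds antioxidant response elements, and the repressor BACH1 competes for the same elements. The target genes build and recycle glutathione, keep thioredoxin reduced, remove peroxides and quinones and break down heme. In the intestine this program is known for protecting the epithelium from dietary electrophiles and oxidants.

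To show where such elements lie in these genes, the core TGACNNNGC was searched on both strands from 1000 bases before to 50 bases after the start of each gene's canonical transcript in GRCm39. Of 10 genes, 6 held it, and 31.9% of the 12995 protein-coding genes tested held it in the same window. The 8 matches are printed 5′ to 3′ on the strand that carries the core, with 10 flanking bases on each side and the core in capitals, so that the promoters of genes that passed the test below can be set beside those of genes that did not.
Srxn1, chr2:151947472-151947480, minus strand: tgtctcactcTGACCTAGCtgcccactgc
Gclm, chr3:122039072-122039080, minus strand: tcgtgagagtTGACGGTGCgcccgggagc
Txnrd1, chr10:82694642-82694650, minus strand: gcactggctgTGACCCTGCcaaatagttg
Txnrd1, chr10:82694948-82694956, minus strand: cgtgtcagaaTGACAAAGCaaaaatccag
Prdx1, chr4:116542663-116542671, minus strand: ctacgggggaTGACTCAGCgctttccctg
Gsr, chr8:34142522-34142530, plus strand: acgtttcttaTGACTTAGCagtatttaat
Gsr, chr8:34142750-34142758, minus strand: aaggtcacagTGACCAAGCggctttcttg
Gpx4, chr10:79888432-79888440, plus strand: ttgggtgaccTGACTTAGCtgcagggatg
The core of Prdx1, centered 74 bases before the start, also holds the AP-1 motif TGACTCA, and none of the other matches does. No match lay in this window of Hmox1, Gclc, Nqo1 or Gpx2. A match is a description of the letters and not evidence of binding. Only this core was searched, so a window without a match may hold elements with other letters, and says nothing about elements farther away.

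LDL-treated organoids had higher levels of 7 of the 10 genes, led by Hmox1 at 4.0-fold, Srxn1 at 2.02-fold and Gclc at 1.78-fold, with Gclm, Gpx2, Txnrd1 and Nqo1 between 1.33-fold and 1.48-fold. Gsr, Gpx4 and Prdx1 had fold changes of 1.02 to 1.03 and did not pass the test, and 0 were lower, against 7.45% of all genes tested that were lower at any fold. The test was limma on log2(normalized count + 1) with the mouse as a block, with two-sided p-values and Benjamini-Hochberg adjustment over the 18459 genes whose normalized counts averaged 10 or more, a filter that all 10 genes passed on their PBS values alone. Calls required more than a 1.5-fold change besides an adjusted p-value under 0.05, and all fold changes are on the log2(value + 1) scale. Of the 10 genes, 3 were called upregulated against 5.68% of all genes tested, and 7 were higher at an adjusted p-value under 0.05 at any fold against 8.27% of all genes. The median log2 fold change of the 10 genes was 0.43, against -0.016 for all genes tested. Within mice 1, 2 and 3, the median log2 difference of the 10 genes was 0.42, 0.46 and 0.46. LDL values lay above all PBS values for 6 of the 10 genes, which held for 11.9% of all genes tested, and 8 of the 10 were higher with LDL in every mouse, which held for 24.2% of all genes.

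**Figure D1:**
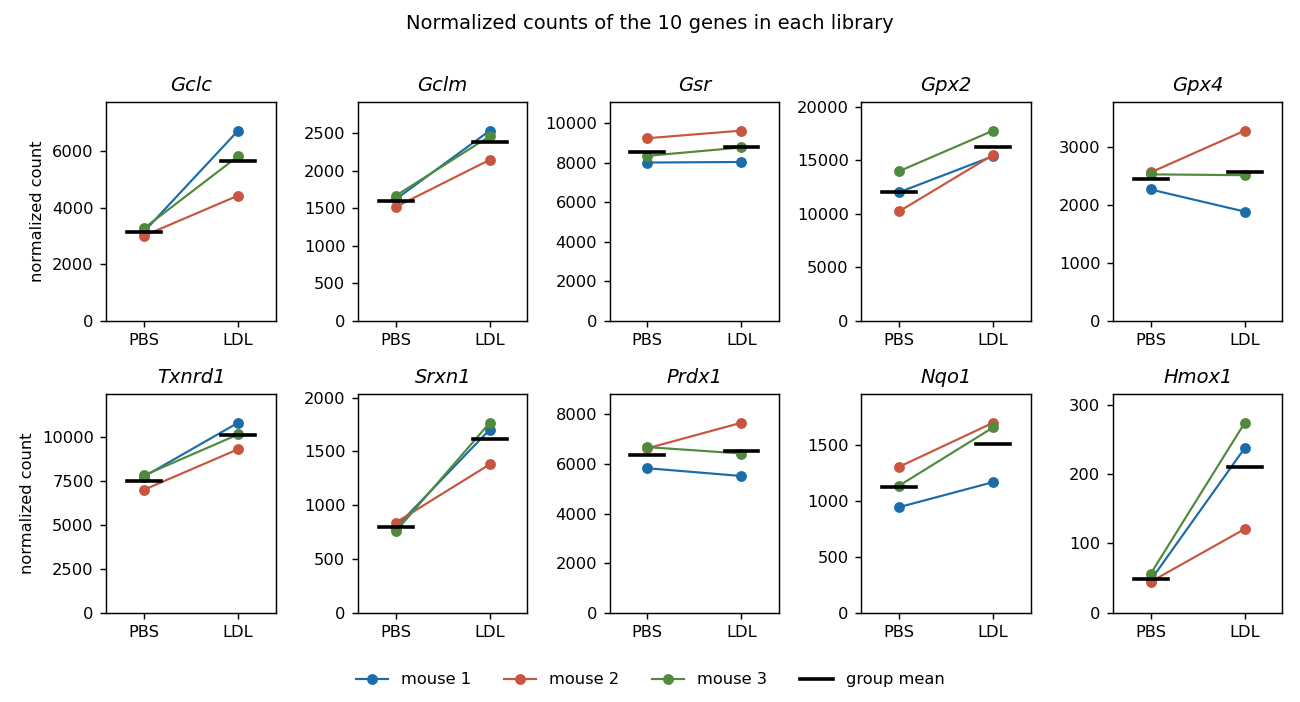
Normalized counts (y axis, starting at 0) of the 10 genes in PBS- and LDL-treated organoids, with 1 line per mouse and black bars for the group means. Lines rise in all 3 mice for 8 genes, steeply for Hmox1, Srxn1 and Gclc and hardly for Gsr, and run in mixed directions for Gpx4 and Prdx1.

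Without the mouse as a block, Hmox1, Srxn1, Gclc and Gclm still had adjusted p-values under 0.05, where 0.932% of all genes tested were higher at any fold, 0.878% were called upregulated and 0.395% downregulated. The other 3 risen genes no longer passed (limma adjusted p = 0.250 for Nqo1, 0.0872 for Txnrd1 and 0.143 for Gpx2). Without mouse 3, the adjusted p-values from limma were 0.0408 for Hmox1 and 0.0425 for Srxn1, while Gclc (0.0690), Gclm (0.0855), Txnrd1 (0.159), Gpx2 (0.173) and Nqo1 (0.242) did not pass. Without mouse 1, those of Gpx2 and Txnrd1 were 0.0781 and 0.0839. Of the 10 genes, 5, 7 and 2 passed at any fold without mouse 1, 2 and 3, and the log2 fold changes of the 7 stayed positive in these fits. Over all genes tested, 719, 1634 and 277 were called upregulated without mouse 1, 2 and 3, against 1048 with all mice. Those called downregulated numbered 326, 1333 and 82, against 639. Counts of the lists below with a mouse left out are to be read beside these.

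**Figure D2:**
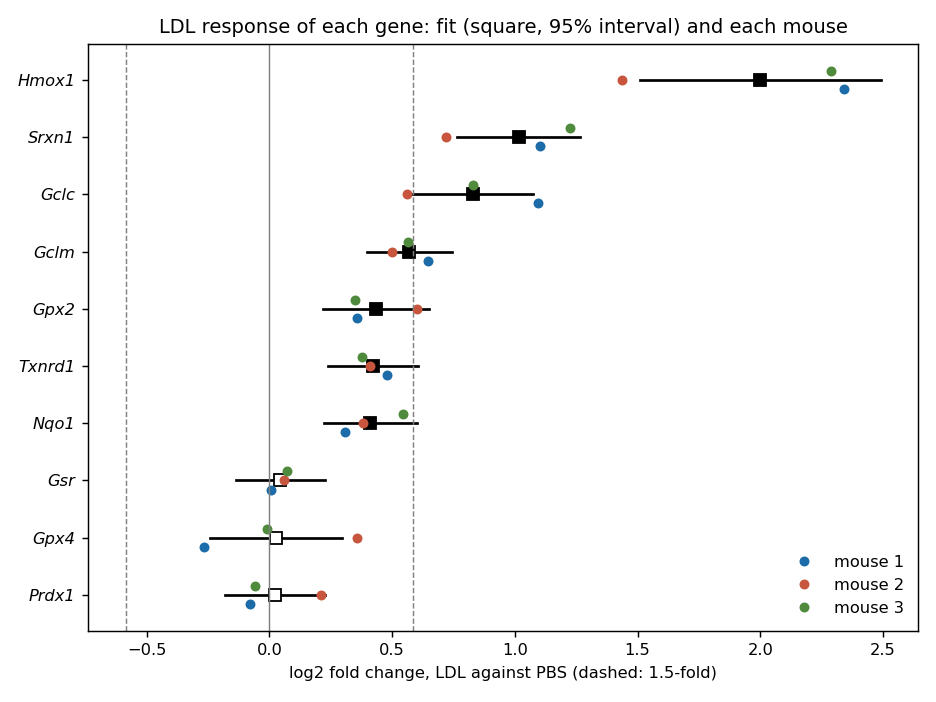
Log2 fold changes (x axis) of the 10 genes, LDL against PBS, from the paired limma fit (squares, filled where the adjusted p-value was under 0.05, with 95% intervals) and in each mouse (colored points); dashed lines mark 1.5-fold. Hmox1 sits at 2.00, Srxn1 at 1.02 and Gclc at 0.83, and the intervals of Gsr, Gpx4 and Prdx1 include 0.

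Glutathione is made in a first, rate-limiting step by glutamate-cysteine ligase, of which Gclc encodes the catalytic and Gclm the modifier subunit. Gclc, on the plus strand of chromosome 9 from 77661797 to 77701770, had normalized counts of 6734, 4433 and 5826 in the LDL-treated and 3155, 3007 and 3275 in the PBS-treated libraries of mice 1, 2 and 3. The groups did not overlap, and the PBS values were close together while those with LDL spread widely, highest in mouse 1 and lowest in mouse 2. The means were 5664 ± 1159 and 3146 ± 134 (SD, n = 3), a log2 fold change of 0.83 ± 0.11 (SE, limma adjusted p = 0.00272, and 0.0690 without mouse 3).
Gclm, on chromosome 3 from 122039126 to 122065061, had normalized counts of 2534, 2145 and 2460.0 with LDL and 1618, 1516 and 1665 with PBS. Again no values overlapped, and each mouse rose by a like amount, 1.57-fold, 1.42-fold and 1.48-fold. This was a log2 fold change of 0.57 ± 0.074 (SE, limma adjusted p = 0.00289, and 0.0855 without mouse 3), just under the 1.5-fold needed for a call. Gclm shares 869 exonic bases with the lncRNA Gm17494 on the other strand, on which 149 to 312 reads were counted per library.
Gsr, on chromosome 8 from 34142551 to 34188192, encodes glutathione reductase, which returns oxidized glutathione to its reduced form. Its normalized counts were 8034, 9622 and 8768 with LDL and 8005, 9236 and 8343 with PBS. Each mouse was within 1.0-fold to 1.05-fold, less than the differences between mice. The log2 fold change was 0.045 with a 95% interval of -0.13 to 0.23, so a 1.5-fold change in either direction lies outside the interval. It shares 144 exonic bases with the snoRNA Gm24727 on the same strand, on which 388 to 923 reads were counted per library.

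Among the selenium-containing glutathione peroxidases, Gpx2 is the form made chiefly in gastrointestinal epithelium and Gpx4 is the one that reduces phospholipid hydroperoxides in membranes. Normalized counts of Gpx2, on the minus strand of chromosome 12 from 76839107 to 76842326, were 15385, 15511 and 17778 with LDL and 12006, 10218 and 13976 with PBS. The lowest LDL value lay above the highest PBS value, and in contrast to Gclc the rise was largest in mouse 2. Its log2 fold change was 0.44 ± 0.093 (SE, limma adjusted p = 0.0191, and 0.0781 and 0.173 without mice 1 and 3). The processed pseudogene Gpx2-ps1 held normalized counts of 1135 to 1993, and how reads that match both copies were assigned is not known here, which leaves the level of Gpx2 uncertain.
Gpx4, on chromosome 10 from 79883000 to 79892273, had normalized counts of 1881, 3277 and 2509 with LDL and 2262, 2556 and 2523 with PBS. LDL values lay on both sides of the PBS values, lower in mouse 1 and higher in mouse 2. The log2 fold change was 0.028 with a 95% interval of -0.24 to 0.30, and without mouse 2 it was -0.14. Its processed copy Gpx4-ps2 held normalized counts of 402 to 873.

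Per kilobase of exon, Gpx2 was the most abundant of the 10 genes in both groups, at 192 ± 32.1 RPKM, that is, reads per kilobase of exon scaled to the library total, with LDL and 146 ± 28.1 with PBS (SD, n = 3). Gpx1, the widely expressed peroxidase, followed in this family at 103 ± 19.7 and 105 ± 7.83 RPKM, and Gpx4 stood at 56.8 ± 18.2 and 54.9 ± 2.65 RPKM. The log2 fold change of Gpx1 was -0.016 (limma adjusted p = 0.920). Of 8 glutathione peroxidase genes, 4 passed the filter on low values, and Gpx2 alone of these had an adjusted p-value under 0.05.

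Thioredoxin reductase, peroxiredoxin and sulfiredoxin form the second peroxide-removing system, in which peroxiredoxins reduce hydrogen peroxide with electrons from thioredoxin. Txnrd1, the cytosolic thioredoxin reductase on chromosome 10 from 82669785 to 82733546, had normalized counts of 10819, 9311 and 10150.3 with LDL and 7755, 7002 and 7822 with PBS. The groups did not overlap, and the 3 mice rose by similar amounts, 1.4-fold, 1.33-fold and 1.30-fold. This gave a log2 fold change of 0.42 ± 0.079 (SE, limma adjusted p = 0.0110, and 0.0839 and 0.159 without mice 1 and 3).
Srxn1, on chromosome 2 from 151947436 to 151957687, encodes sulfiredoxin, which repairs peroxiredoxins that excess peroxide has overoxidized. Its normalized counts were 1703, 1380 and 1766 with LDL and 792, 838 and 756 with PBS. The PBS values lay within a narrow band and each LDL value was far above it, by 2.15-fold, 1.65-fold and 2.34-fold in mice 1, 2 and 3. The means of 1616 ± 207 and 795 ± 41.1 (SD, n = 3) differed by a log2 fold change of 1.02 ± 0.11 (SE, limma adjusted p = 0.00117).
Prdx1, on chromosome 4 from 116532123 to 116558398, encodes an abundant cytosolic peroxiredoxin that sulfiredoxin repairs. Its normalized counts were 5515, 7663 and 6422 with LDL and 5829, 6631 and 6679 with PBS. Values overlapped, with mouse 2 higher and mice 1 and 3 slightly lower under LDL. The log2 fold change was 0.024 with a 95% interval of -0.18 to 0.23, and without mouse 2 it was -0.068. Of the core matches printed above, those nearest the start were in Srxn1, Gclm and Txnrd1, which passed, and in Prdx1, which did not. Gsr and Gpx4 held matches farther from the start and did not pass. Hmox1, Gclc, Nqo1 and Gpx2 passed with no match in the window. Whether a match bears on the response was not tested.

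Relatives of these genes were read beside them. Txnrd2 and Txnrd3, the mitochondrial and testis-enriched reductases, had log2 fold changes of -0.20 and -0.068 (limma adjusted p = 0.356 and 0.715), and at 2.97 and 4.30 RPKM with LDL they were far below Txnrd1 at 53.9. The other peroxiredoxins had log2 fold changes of -0.27 (Prdx2), -0.32 (Prdx3), -0.20 (Prdx4), -0.00084 (Prdx5) and 0.21 (Prdx6), and their limma adjusted p-values ran from 0.0653 to 0.997. Without mouse 2, Prdx2, Prdx3 and Prdx4 had log2 fold changes of -0.35, -0.47 and -0.37 and passed the test (limma adjusted p = 0.00197, 0.000560 and 0.0212).

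**Figure D3:**
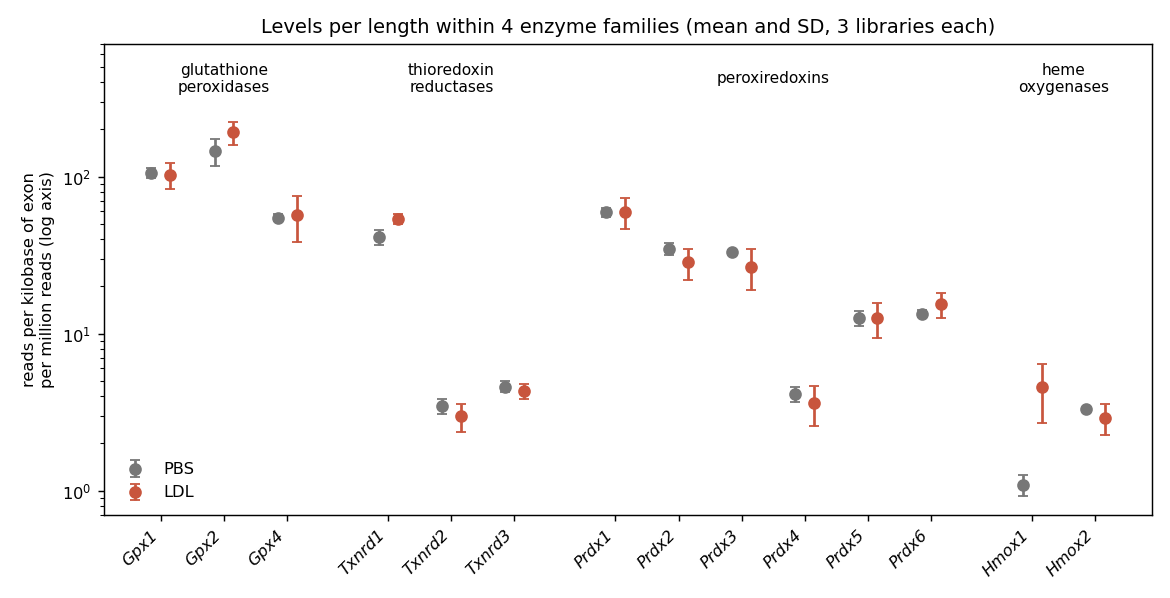
Levels per length (RPKM, log axis) of members and their relatives in 4 enzyme families, as mean and SD of 3 libraries, PBS in grey and LDL in red. Gpx2 is highest at 146 with PBS and 192 with LDL, and Txnrd1 stands far above Txnrd2 and Txnrd3. Per length, the mean of Hmox1 is below that of Hmox2 with PBS (1.09 against 3.30) and above it with LDL (4.56 against 2.91). In the LDL-treated library of mouse 2 alone Hmox1 stays below Hmox2. This order depends on the summed exon lengths used, 1759 bases for Hmox1 and 8239 for Hmox2. In normalized counts with LDL, Hmox2 was above Hmox1 in each mouse, at 538, 750 and 596 against 238, 121 and 274.

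Nqo1 and Hmox1 encode enzymes that act on quinones and heme. Nqo1, on the minus strand of chromosome 8 from 108113835 to 108129934, encodes a quinone reductase and had normalized counts of 1169.7, 1701 and 1659 with LDL and 945 in mouse 1, 1306 in mouse 2 and 1137 in mouse 3 with PBS. The LDL value of mouse 1 lay below the PBS value of mouse 2, so the groups overlapped, and LDL was higher within each mouse, by 1.24-fold, 1.30-fold and 1.46-fold. Nqo1 had a log2 fold change of 0.41 ± 0.082 (SE, limma adjusted p = 0.0144, 0.250 without the block and 0.242 without mouse 3).
Hmox1, on chromosome 8 from 75820241 to 75827217, encodes the inducible heme oxygenase, which splits heme into biliverdin, iron and carbon monoxide. Its normalized counts were 238, 121 and 274 with LDL and 47.0, 44.7 and 56.2 with PBS. It was the least abundant of the 10 genes per kilobase of exon and had the largest fold change, 5.07-fold, 2.7-fold and 4.88-fold in mice 1, 2 and 3, with no overlap. Hmox1 had a log2 fold change of 2.00 ± 0.21 (SE, limma adjusted p = 0.00117). Hmox2, the constitutive heme oxygenase, had a log2 fold change of -0.18 (limma adjusted p = 0.255).
Across the 7 genes that rose, the smallest fold was in mouse 2 for 4 (Gclc, Gclm, Srxn1 and Hmox1), in mouse 3 for 2 (Txnrd1 and Gpx2) and in mouse 1 for Nqo1.

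The transcript of NRF2 itself was higher with LDL. Normalized counts of Nfe2l2 were 6497, 7161 and 7143 with LDL and 4082, 5422 and 4755 with PBS, without overlap. Its log2 fold change was 0.55 ± 0.084 (SE, limma adjusted p = 0.00507, 0.0704 without the block and 0.120 without mouse 3). Keap1 had a log2 fold change of 0.025 (limma adjusted p = 0.887) and Bach1 of -0.19 (limma adjusted p = 0.149, and 0.0436 without mouse 2). Of 18 genes in a list of NRF2 and its regulators, Sqstm1 was the only one called, a share like the 5.68% of all genes tested that were called upregulated. It encodes p62, an autophagy receptor that binds KEAP1, and had a log2 fold change of 0.59 (limma adjusted p = 0.0170, 0.101 without the block and 0.223 without mouse 3). The median of this list was 0.022, with 12 genes higher and 6 lower; 0, 3 and 0 genes were called upregulated without mouse 1, 2 and 3.

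Among 43 tested genes of a list of other known NRF2 targets, 12 were called upregulated and 1 downregulated, against 5.68% and 3.46% of all genes tested, and 29 were higher and 14 lower, with a median log2 fold change of 0.33. Without the block, 3 were called upregulated and 0 downregulated, and without mouse 3 the counts were 4 and 0. The largest rise was that of Akr1b8, an aldo-keto reductase, whose normalized counts were 4266, 3198 and 4469 with LDL and 467, 258 and 570 with PBS. All 3 mice rose by 7.84-fold to 12.4-fold, a log2 fold change of 3.26 (limma adjusted p = 1.22e-05). Me1, which makes NADPH from malate, rose with a log2 fold change of 1.98 (limma adjusted p = 1.22e-05); it is also a target of PPAR. Abcc4, an exporter of conjugated and anionic compounds, had a log2 fold change of 1.09 (limma adjusted p = 0.00115, and 0.121 without the block). Adh7, an alcohol dehydrogenase at 25.1 to 43.7 normalized counts with LDL and 9.19 to 14.9 with PBS, had 1.41 (limma adjusted p = 0.0187, 0.0806 without the block, and 0.0956 and 0.0950 without mice 1 and 3). Gstm2, a glutathione transferase, fell by 0.72 on the log2 scale (limma adjusted p = 0.00879, 0.214 without the block and 0.137 without mouse 3).

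Of 26 genes of glutathione synthesis, recycling and turnover, 1 was called upregulated (Gclc) and 3 downregulated, against 5.68% and 3.46% of all genes tested. The median log2 fold change was -0.11. Without mouse 2 these counts were 4 and 5, when calls over all genes rose to 1634 and 1333. Without mouse 3 they were 0 and 2. At any fold 3 were higher (Gclc, Gclm and Gss) and 6 lower, against 8.27% and 7.45% of all genes. Slc7a11, the cystine carrier of the xCT exchanger and a target of both NRF2 and ATF4, had normalized counts of 4721, 1290 and 4390 with LDL and 2094, 1341 and 1506 with PBS. It was 2.26-fold and 2.91-fold higher with LDL in mice 1 and 3 but 0.962-fold in mouse 2, and did not pass the test (log2 fold change 0.89, limma adjusted p = 0.0536). Without mouse 2 the log2 fold change was 1.36 (limma adjusted p = 1.47e-09) and without mouse 3 it was 0.56 (limma adjusted p = 0.389). It passed with no filter on low values (limma adjusted p = 0.0363), with upper-quartile scaling (limma adjusted p = 0.0420) and with edgeR (adjusted p = 0.0435), and did not with DESeq2 (adjusted p = 0.227) or without the block (limma adjusted p = 0.338). Gss, glutathione synthetase, named like the 3 genes after it once their values were seen, had a log2 fold change of 0.53 (limma adjusted p = 0.00813, 0.0550 without the block and 0.158 without mouse 3). Lower at any fold but not called were the amino acid carrier Slc1a5 and the surface peptidases Ggt6 and Anpep, which had log2 fold changes of -0.39, -0.50 and -0.41 (limma adjusted p = 0.0368, 0.0451 and 0.0203).
The 3 genes called downregulated were Chac1, which degrades glutathione, Cth, which makes cysteine from cystathionine, and Dpep1, a dipeptidase of the brush border. Chac1 had normalized counts of 78.1, 93.7 and 106 with LDL and 325, 355 and 366 with PBS, and fell by 1.91 on the log2 scale (limma adjusted p = 0.000153). Cth fell by 1.89 (limma adjusted p = 0.000603) and Dpep1 by 0.74 (limma adjusted p = 0.0292, 0.473 without the block, and 0.0654 and 0.186 without mice 1 and 3).

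NADPH, which glutathione reductase and thioredoxin reductase consume, is supplied by 17 genes of a further list, with a median log2 fold change of -0.093. Of these, Me1 was called upregulated and 4 were called downregulated, against 5.68% and 3.46% of all genes tested. The count of 4 was 7 without mouse 2, when 1333 of all genes were called downregulated, and 3 without mouse 3. At any fold 3 were higher and 6 lower, and the 4 of these that were not called are named here after their values were seen. G6pdx and Pgd, the NADPH-producing enzymes of the pentose phosphate pathway, had log2 fold changes of 0.51 and 0.35 (limma adjusted p = 0.00744 and 0.0211, and 0.0566 and 0.0872 without the block). Neither passed without mouse 3 (limma adjusted p = 0.0691 and 0.257), and Pgd did not without mouse 1 (limma adjusted p = 0.125). Idh2, the mitochondrial isocitrate dehydrogenase, and Nnt, the mitochondrial transhydrogenase, had -0.44 and -0.53 on the log2 scale (limma adjusted p = 0.0453 and 0.0447). The 4 genes called downregulated were mitochondrial malic enzyme Me2 and the folate enzymes Aldh1l1, Aldh1l2 and Mthfd2, whose log2 fold changes were -0.74, -1.70, -3.60 and -0.79 (limma adjusted p = 6.73e-05 for Aldh1l2 to 0.00224 for Me2). Me2 did not pass without the block (limma adjusted p = 0.0953) or without mouse 3 (limma adjusted p = 0.0712).

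Of 15 tested genes for selenoproteins other than the members and further glutathione peroxidases, 3 were called downregulated and 0 upregulated. Of all genes tested, 3.46% and 5.68% were. The median log2 fold change was -0.20. At any fold, 1 gene (Selenoi) was higher and 4 were lower, against 8.27% and 7.45% of all genes. The 4 include Selenos, named after its values were seen, with a log2 fold change of -0.34 (limma adjusted p = 0.0415). The count of 3 was 1, 5 and 0 without mouse 1, 2 and 3. Selenow, a small redox protein, and Selenop, the secreted selenium carrier, had log2 fold changes of -0.68 and -0.73 (limma adjusted p = 0.00193 and 0.00633). Selenoo had -0.59 (limma adjusted p = 0.0110). None of these 3 passed without the block (limma adjusted p = 0.104, 0.247 and 0.123) or without mouse 3 (limma adjusted p = 0.0673, 0.0505 and 0.111). For the machinery that inserts selenocysteine, 0 of 10 genes were called in either direction, against 5.68% upregulated and 3.46% downregulated of all genes tested. The median was -0.086. At any fold, Pstk and Rpl30 were lower, against 7.45% of all genes, and 2 genes were called downregulated without mouse 2. A list of superoxide dismutases, their copper chaperone Ccs and catalase had 4 tested genes. All had negative log2 fold changes and none was called, with a median of -0.23.

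Among 16 genes for enzymes that produce oxidants, 10 were tested and 5 were called upregulated, against 5.68% of all genes tested. The median log2 fold change was 0.91. Without the block 2 were called upregulated, against 0.878% of all genes tested, and without mouse 3 it was 3. Without mouse 2, 1 was called downregulated. At any fold, Aoc1, a diamine oxidase named after its values were seen, was lower. Noxa1, the activator subunit of the NOX1 oxidase, had normalized counts of 213, 151 and 229 with LDL and 43.9, 28.6 and 42.3 with PBS, a log2 fold change of 2.34 (limma adjusted p = 0.000167). Xdh, xanthine dehydrogenase, rose by 2.05-fold to 2.40-fold in the 3 mice, a log2 fold change of 1.16 (limma adjusted p = 0.000187).
Duox2, the hydrogen peroxide-producing oxidase of the gut surface, and its maturation factor Duoxa2 had log2 fold changes of 2.18 and 2.12 (limma adjusted p = 0.00899 and 0.0116). Duox2 ranged widely, with normalized counts of 814, 122.8 and 467 with LDL and 76.6, 64.6 and 98.5 with PBS. Neither passed without the block (limma adjusted p = 0.114 and 0.151) or without mouse 3 (limma adjusted p = 0.122 and 0.159), and Duoxa2, with at most 51.2 normalized counts, did not without mouse 1 (limma adjusted p = 0.0654). The remaining gene, named after its values were seen, was Cyba, the membrane partner of NOX oxidases, with a log2 fold change of 0.88 (limma adjusted p = 0.00279, and 0.140 without the block).

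Heme breakdown and ferritin genes had 2 of 10 tested genes called upregulated, Hmox1 and Por, against 5.68% of all genes tested. Hmox1 also belongs to the members counted above, and the log2 fold changes of these heme and ferritin genes had a median of 0.044. Por, the reductase that passes electrons to heme oxygenase and to cytochromes P450, rose by 1.96-fold to 1.99-fold in the 3 mice, a log2 fold change of 0.98 (limma adjusted p = 0.000235). Of 18 genes linked to lipid peroxidation and ferroptosis, a cell death by peroxidized membrane lipids that GPX4 prevents, 2 were called upregulated and 2 downregulated, against 5.68% and 3.46% of all genes tested, with a median of 0.039; upregulated counts were 1, 4 and 1 without mouse 1, 2 and 3, and 1 gene was called downregulated without mouse 3. Ptgs2, which encodes cyclooxygenase 2, had normalized counts of 668, 23.6 and 312 with LDL and 18.4, 2.49 and 7.33 with PBS. Its log2 fold change was 4.39 (limma adjusted p = 0.00104, and 0.106 without the block), and levels with LDL differed strongly between mice. Gch1, which starts the synthesis of the antioxidant tetrahydrobiopterin, had a log2 fold change of 0.81 (limma adjusted p = 0.0201, 0.142 without the block, and 0.0674 and 0.240 without mice 1 and 3). Chac1, given above, and Dpp4 were lower, Dpp4 with a log2 fold change of -0.70 (limma adjusted p = 0.00439, 0.158 without the block and 0.106 without mouse 3). In the wider list of thioredoxins and peroxiredoxins, 1 of 21 tested genes (Srxn1) was called upregulated, a share like the 5.68% of all genes tested. In this list 0 were called downregulated, against 3.46% of all genes, and 2 were without mouse 2. Its median was -0.059.

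**Figure D4:**
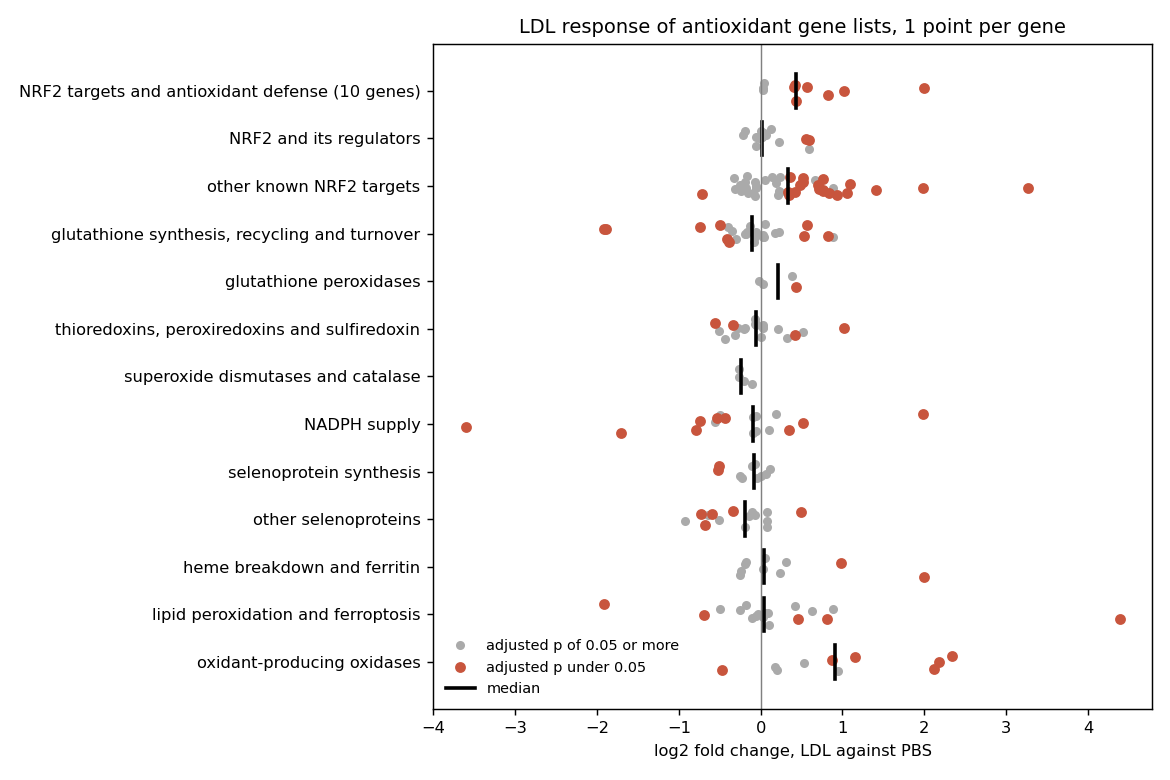
Log2 fold changes (x axis), LDL against PBS, of the tested genes of 13 lists, with 1 point per gene, red where the adjusted p-value was under 0.05 in the paired limma fit, and a black line at the median of each list. The medians lie at 0.43 for the 10 genes, 0.33 for other NRF2 targets and 0.91 for oxidant-producing oxidases, and between -0.23 and 0.21 for the other lists; some genes are in several lists.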

How the data were processed

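Total RNA of organoids was depleted of ribosomal RNA and sequenced from stranded libraries. The authors aligned the reads to GRCm39 with STAR and counted them per gene with featureCounts; the strand setting was not given in the sources used here. The signal deposited for each gene is its read count over the size factor of the library (normalized count). Dividing each column by its smallest value above 0 gave whole reads for 100% of values (within 0.01 reads), 22061545 to 31073360 per library. The labels give the LDL- and PBS-treated samples of a replicate number 1 animal identifier, and after removal of group means the libraries of a mouse correlated across genes with r = 0.48, 0.42 and 0.46. The mouse was a block in the main fit; whether the RNA-Seq test of the study was paired was not given in the sources used here.

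Genes whose normalized counts averaged 10 or more were kept, and log2(count + 1) was tested with limma 3.58.1 in R 4.3.3. RPKM used recovered reads, all reads on genes and the summed exon length in GENCODE M39, in which 54749 of 55416 identifiers were found. Motifs were read from GRCm39. Figures were drawn with matplotlib 3.10.9. The alternatives tried were a pseudocount of 0.5 or 5, no filter on low values or a stricter one (mean of 50), scaling to the upper quartile or to equal quantiles, no block, each mouse left out, any fold change, and DESeq2 1.42.0 and edgeR 4.0.16 with the block on the recovered reads. The fits were tested on simulated data. The members and lists were chosen with earlier results of these data known. Named genes were all members, up to 4 called genes per list and direction, and relatives and regulators listed by hand, of which 1 gene is not reported here; others are marked in the text or complete a short count. Of 243 list genes, 1 had no row. Lists were described by counts and medians, with no set test.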

Additional observations from a re-analysis of the deposited data

How the results depend on the processing

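In the 12 alternative fits, the log2 fold changes of the 7 risen members stayed positive, from 0.34 to 0.46 for Nqo1 up to 1.84 to 2.29 for Hmox1, and DESeq2 and edgeR with the block kept all 7 at an adjusted p-value under 0.05. Without the pairing by mouse (no replicate block), 162 and 73 genes were called up- and downregulated and 4 members passed at any fold, and 3 members were still called. Leaving out each mouse in turn gave 277 to 1634 and 82 to 1333 genes called, 2 to 7 members passing at any fold, and a median of the members of 0.43 to 0.47. That median was 0.40 with upper-quartile scaling and 0.49 with quantile normalization. At any fold change, 1375 genes were lower and 7 members higher. Values near 0 changed sign: with each mouse left out in turn, Gpx4 ranged from -0.14 to 0.18, Prdx1 from -0.068 to 0.076, Keap1 from -0.054 to 0.096, Gpx1 from -0.065 to 0.024 and Prdx5 from -0.066 to 0.053, with 0.011 without mouse 2. Prdx1 was -0.0030 and Keap1 -0.0022 with upper-quartile scaling, and Prdx5 was 0.020 with quantile normalization. Gpx1 was 0.00083 and Prdx5 0.017 with DESeq2, and Gpx1 was 0.0053 and Prdx5 0.023 with edgeR. The causes were not tested. No member was under 44.7 normalized counts in any library.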
